A study of Mus musculus with 8 samples.

Results

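The large histone gene cluster on mouse chromosome 13 was examined as a set of DNase I hotspots, stretches where DNase I cuts cluster because the chromatin is open. Every hotspot on chromosome 13 that starts in the 2.5 Mb up to 24 Mb (build mm9) in any of 8 hotspot lists was taken, and hotspots that overlapped by at least 1 bp were merged. This gave 150 sites of the 99999 merged sites of the genome. Members were chosen by position and by being listed in at least 1 library, so being listed somewhere is part of the choice and counts of listing are a description.

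The libraries came from 3134 cells, a mouse mammary epithelial line, and from 3 derived lines. Each derived line carries, under tetracycline control, a dominant-negative version of the ATPase of a remodeler: Brg1 of the SWI/SNF complexes (the DNBrg1 line), Chd4 of the NuRD complex (the DNCHD4 line) or Snf2h of the ISWI complexes (the DNSnf2h line). Per the labels' protocols, the Snf2h construct was a FLAG-tagged human cDNA and the Chd4 construct a FLAG-tagged mouse cDNA, each with 1 lysine replaced and stably integrated by retrovirus into 3134 cells that hold the tetracycline transactivator. The protocols do not describe the Brg1 construct, nor say whether the parental cells hold the transactivator or whether a line is 1 clone. Engineered lines were maintained in 5 μg/ml tetracycline, which represses the transgene, and all cells were then kept for 48 hours in charcoal-dextran-treated serum with tetracycline (repressed) or without it (induced in the 3 engineered lines). Each of the 4 lines gave 1 library per state. The design therefore holds 1 library per group, no difference has a replicate check, and no test or p-value is given.

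Histone genes of this cluster encode the linker histone H1 and the core histones H2A, H2B, H3 and H4. Most of them are transcribed in S phase, when new DNA must be packed into nucleosomes, and many lie in divergent H2A and H2B pairs with short promoters between them. SWI/SNF complexes slide and evict nucleosomes, NuRD couples nucleosome remodeling to histone deacetylation, and ISWI complexes space nucleosomes.

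The gene order of the stretch came from RefSeq on GRCm38.p6. That build is not the mm9 build of the hotspots, so genes were not assigned to hotspots and only their order is used. In that order, 24 histone genes from H2bc13 to H2bc11 form a first run, interleaved with 31 tRNA genes. A second run of 32 histone genes goes from H4c8 to H2ac1 and also holds 4 Slc17a genes, which encode organic anion and phosphate transporters, and no tRNA gene. Between the runs lie 147 genes, of which 75 belong to the Vmn1r family of vomeronasal (pheromone) receptors, 46 are tRNA genes and none is a histone gene. Of the 75 Vmn1r entries, 39 are pseudogenes. Together the runs hold 6 H1, 15 H2A, 15 H2B, 9 H3 and 11 H4 genes, 54 of the 56 being protein-coding.

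The promoter sequences show what kind of element this cluster repeats. For each histone class the promoter below is that of its first gene in chromosome order with a match in the last 120 bases before the annotated start, and H2bc14 was added as the first gene with an octamer match there. Sequences are from RefSeq (GRCm38.p6, chromosome 13), 5′ to 3′ on the gene's strand, and end at the base before the start. Capitals mark matches, on either strand, to the CCAAT box, to a TATA box written TATAAA, or to the octamer, which is written ATTTGCAT. H1f5 is on the minus strand, H2ac13 on the plus, H2bc13 on the minus, H3c10 on the plus, H4c12 on the minus and H2bc14 on the plus strand.
H1f5: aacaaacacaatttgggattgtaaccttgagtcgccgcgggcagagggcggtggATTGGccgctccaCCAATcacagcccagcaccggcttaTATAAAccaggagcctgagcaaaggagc
H2ac13: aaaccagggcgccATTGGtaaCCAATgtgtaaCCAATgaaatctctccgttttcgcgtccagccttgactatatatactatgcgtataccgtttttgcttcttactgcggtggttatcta
H2bc13: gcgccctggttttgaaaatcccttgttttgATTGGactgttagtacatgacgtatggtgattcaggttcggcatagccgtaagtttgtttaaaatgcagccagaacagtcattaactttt
H3c10: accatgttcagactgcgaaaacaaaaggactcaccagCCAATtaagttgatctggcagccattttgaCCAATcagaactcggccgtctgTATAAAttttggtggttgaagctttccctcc
H4c12: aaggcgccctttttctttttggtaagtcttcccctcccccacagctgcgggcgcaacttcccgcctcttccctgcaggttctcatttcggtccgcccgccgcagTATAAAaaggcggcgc
H2bc14: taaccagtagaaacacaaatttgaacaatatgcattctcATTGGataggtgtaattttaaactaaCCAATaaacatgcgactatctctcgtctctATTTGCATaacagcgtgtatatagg

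Promoters were found for 51 of the 56 histone genes, with 52 entries. CCAAT, a box bound by NF-Y, was present on either strand in the 250 bases before the start in 44 of 52 histone entries (84.6%), against 33.8% of all 32851 promoter entries. It was found in all 15 H2B, 13 H2A, 7 H3 and 6 H1 entries and in 3 of 11 H4 entries. TATAAA was present in 50% of histone and 12.4% of all entries. The octamer ATTTGCAT, a POU-factor motif, was present in 21.2% of histone and 1.6% of all entries, namely in 6 H2B and 5 H2A entries. The 250 bases before the starts of a divergent H2A and H2B pair can overlap, as for H2ac13 and H2bc13. The same match can then be counted for both genes, so the entries are not independent. CCAAT and the octamer have no letters in common at the matches shown, and a match is a description of the sequence, not a bound site. No hotspot sequence is printed, because no mm9 genome was used here.

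For each library a hotspot list gives the highest tag density within every hotspot, called peak density below. Lists held 24890 to 78093 hotspots and began at a peak density of 5.09 to 16.4, so a site that is absent from a list lay below that list's limit or was removed, and was not shown to be closed. All peak densities of a library were whole multiples of 1 step within 0.05 tags, which made the lowest hotspot worth 26 to 45 tags and the median listed site of the cluster 90.5 to 209 tags. Total depth is unknown, and intervals below are exact binomial intervals on tags at 95%, which cover counting error only. The labelled cell type was not checked against marker genes, since no gene positions on mm9 were used.

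Sites were crowded into a first subcluster of 0.6 Mb, which begins 0.1 Mb into the window, with 60 sites from 21622055 to 22148318, and a second subcluster of 0.4 Mb, with 61 sites from 23500664 to 23856009. The stretch of 1.3 Mb between them held 21 sites, from 22344261 to 23500270. The remaining sites were 6 before the first and 2 after the second subcluster. At the edges of the window, the first site inside (from 21500119) was listed in 5 libraries at 14.8 to 28.7 and the nearest outside (from 21494105) in 5 at 13.6 to 20.4. The last inside (from 23998710) and the nearest beyond it (from 24005931) were listed once each, at 8.26 and 5.88. Site density was 100 per Mb in the first and 153 per Mb in the second subcluster, 16.2 per Mb between them, and 38.9 per Mb over the span of the genome covered by the lists. Neighbouring sites were a median of 1630 bp apart in the first and 1886 bp apart in the second subcluster. Between them the median was 18579 bp. The widest gap without a listed site in any library was 579 kb, from 22568681 to 23148100, and the next was 196 kb, from 22148318 to 22344261. A gap of 178 kb inside the first subcluster, from 21623346 to 21801647, left 58 of its sites in the part above 21801647.

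**Figure D1:**
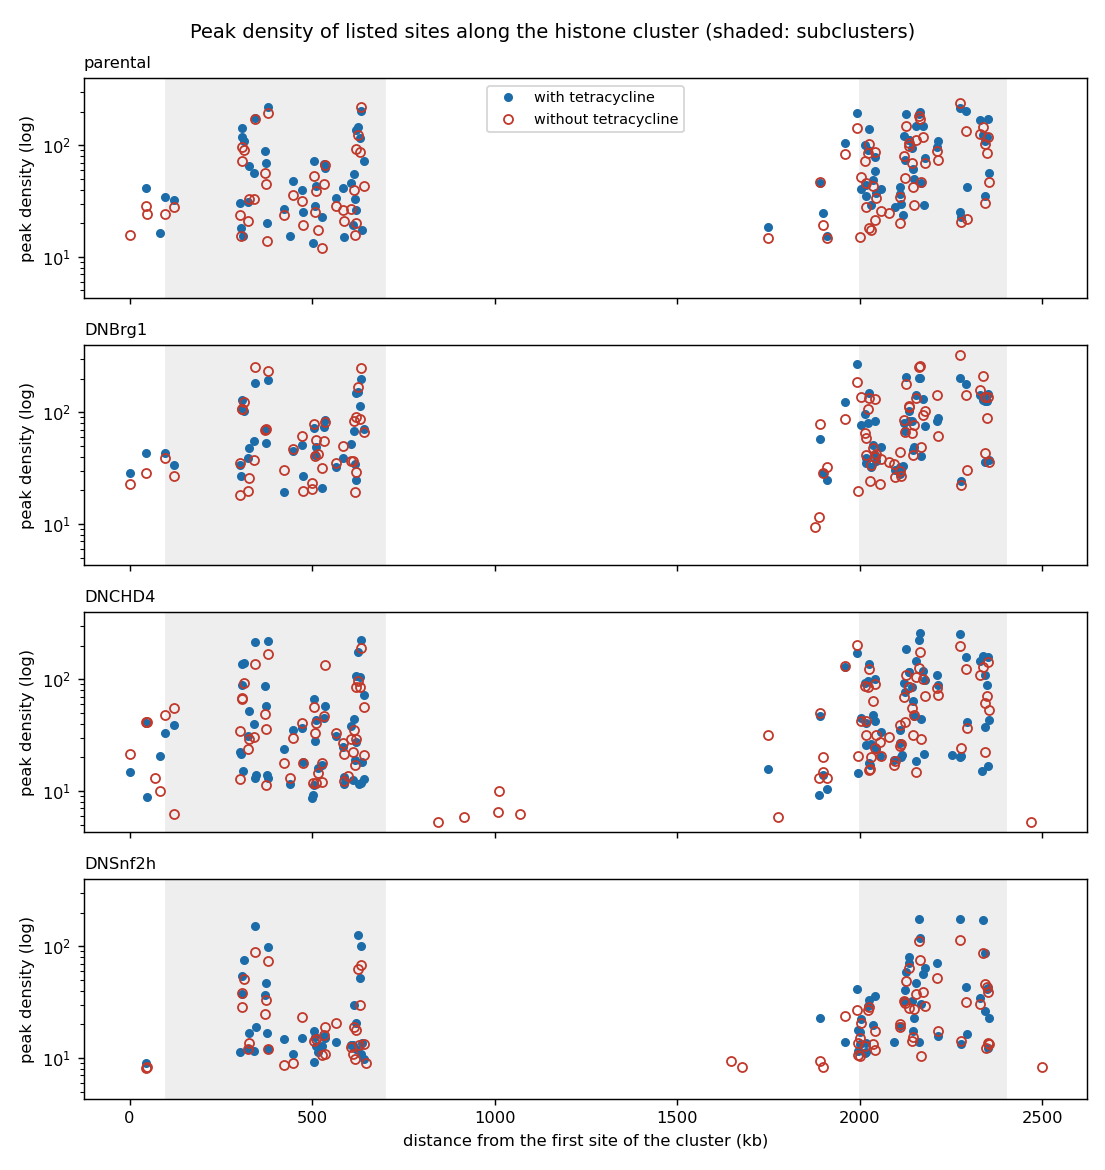
Peak density (log axis) of every listed site against its distance in kb from the first site of the cluster, 1 panel per line, filled points with and open points without tetracycline. Sites crowd into the shaded subclusters in all 4 panels, and the stretch between holds few of them.

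Sites of the cluster were listed in more libraries than sites of the genome. All 8 libraries listed 61 of 150 sites (40.7%), against 12.6% of sites genome-wide and 12.1% of the 4201 other sites of chromosome 13. A single library listed 31 sites (20.7%), against 51.4% genome-wide. These shares were not matched for peak density, and the median cluster hotspot stood above the middle of every list. The second subcluster had the largest share listed in all 8 libraries of the 3 stretches, 32 of 61 (52.5%). The first subcluster had 25 of 60 (41.7%) and the stretch between 3 of 21 (14.3%), where 13 of 21 sites (61.9%) were listed once. Sites of the cluster had a median width of 705 bp after merging, against 561 bp genome-wide.

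**Figure D2:**
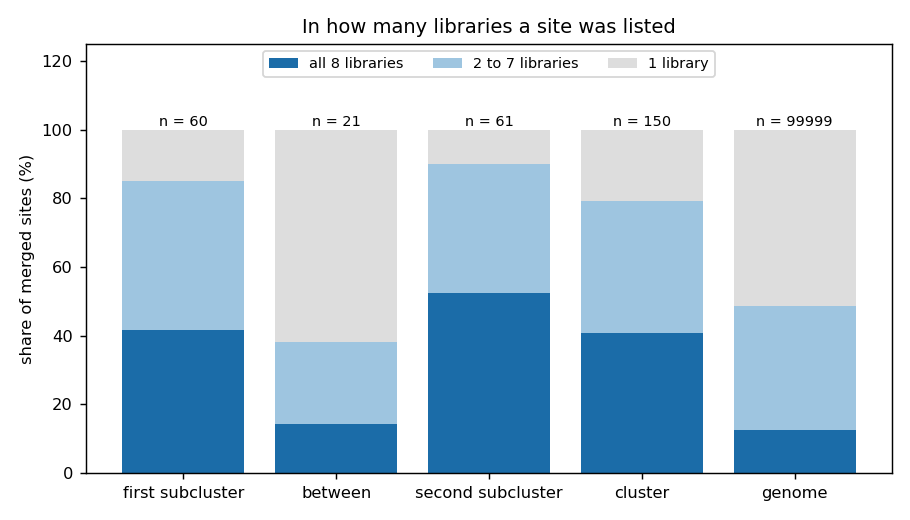
Share of merged sites (%) listed in all 8, in 2 to 7 or in 1 of the 8 libraries, for the 3 stretches, the whole cluster and the genome, with the number of sites above each bar. The dark part, listed in all 8, is 52.5% in the second subcluster, 41.7% in the first, 14.3% between them and 12.6% genome-wide.

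The number of listed sites followed the lengths of the lists only in part. Parental cells listed 96 of the 150 sites with and 91 without tetracycline. DNBrg1 cells listed 85 and 96, DNCHD4 cells 117 in each state, and DNSnf2h cells 84 and 80. In DNCHD4 cells the count was thus the same in both states, while the whole list had 48888 hotspots with and 78093 without tetracycline. In DNSnf2h cells 4 fewer sites were listed without tetracycline, while the whole list grew from 24890 to 33793 hotspots. The lists number their hotspots and skip some numbers: 25 were skipped inside the cluster in the DNSnf2h list without tetracycline, against 4 to 9 in the other 7 lists. The part of these skipped entries in the lower count was not tested.

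The DNSnf2h libraries accounted for most absences among otherwise common sites. All 11 sites listed in exactly 7 libraries were absent from a DNSnf2h library, 4 from that with and 7 from that without tetracycline. A further 8 sites were listed in the 6 libraries of the other lines and in neither DNSnf2h library, and no other line had such a site. In parental cells with tetracycline these 8 sites had a peak density of 15.5 to 41.5 with a median of 33.3, against 22.9 to 218 with a median of 95.2 for the 61 sites listed everywhere. They were thus among the weaker shared sites, in the line whose densities were lowest.

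Sites listed once were weak, and the longest list gave more of them than any other. DNCHD4 cells without tetracycline gave 14 of the 31, at densities of 5.29 to 14.9, and 7 of these lay between the subclusters. DNSnf2h cells without tetracycline gave 7, DNCHD4 cells with tetracycline 4, and the other DNSnf2h library and the induced DNBrg1 library 3 each. Parental cells and DNBrg1 cells with tetracycline gave none. The strongest of them were 2 sites of DNBrg1 cells without tetracycline, chr13:23596926-23597390 at 26.5 and chr13:21998850-21999475 at 23.47. The next, chr13:23751811-23752275, was listed at 21.1 in DNCHD4 cells with tetracycline. Only 4 sites were listed in both libraries of 1 line and in no other library. In DNCHD4 cells these were chr13:22088250-22088685 at 11.6 with and 12.3 without tetracycline, chr13:22141420-22142117 at 12.7 and 21.0, and chr13:23654925-23655332 at 18.4 and 14.9. In DNSnf2h cells the site was chr13:23500664-23501341, at 17.0 and 10.5.

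Peak densities of the cluster stood above the middle of every list. The median cluster hotspot lay at the 63.1st to the 78.5th percentile of its own list, lowest in parental cells with tetracycline and highest in DNBrg1 cells without it. In DNBrg1 cells the percentile was 63.9 with and 78.5 without tetracycline, and in parental cells 63.1 and 69.9. It was 66.0 and 76.1 in DNCHD4, and 66.2 and 73.8 in DNSnf2h cells. The strongest site of the cluster ranked 42 in the DNSnf2h list with tetracycline and 173 in that without it. In DNBrg1 cells it ranked 717 with and 263 without tetracycline. In the remaining 4 lists the rank was 754 to 1721.

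The 6 sites with the highest median rank over the 8 libraries were evenly split between the subclusters. The strongest was chr13:23775340-23776299. With and without tetracycline, parental cells had peak densities of 215 and 237 there. DNBrg1 cells had 202 and 323, DNCHD4 cells 254 and 198, and DNSnf2h cells 175 and 113. In DNBrg1 cells it was 1.6-fold higher without tetracycline (1.42 to 1.81). Density without over with tetracycline was 0.777 (0.716 to 0.843) in DNCHD4 and 0.646 (0.581 to 0.719) in DNSnf2h, while the parental ratio of 1.10 (0.995 to 1.22) held 1 in its interval. This site was higher in induced DNBrg1 cells and lower in induced DNCHD4 and DNSnf2h cells, beyond counting error in each.

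The neighbouring sites chr13:23662706-23663722 and chr13:23665666-23666535 lay in the second subcluster. With tetracycline first, parental cells had 190 and 183 at the former, DNBrg1 cells 203 and 257, DNCHD4 cells 225 and 126, and DNSnf2h cells 177 and 112. Parental cells had 201 and 173 at the latter, DNBrg1 cells 202 and 260, DNCHD4 cells 257 and 174, and DNSnf2h cells 118 and 75.2. Both were higher in induced DNBrg1 cells, 1.26-fold (1.12 to 1.43) and 1.29-fold (1.14 to 1.46), and lower in the induced cells of the other engineered lines.

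The first subcluster held the other strong sites. At chr13:22134598-22135644 parental cells had 203 and 222, DNBrg1 cells 199 and 250, DNCHD4 cells 227 and 189, and DNSnf2h cells 101 and 67.5. At chr13:21878627-21879652 parental cells had 218 and 196, DNBrg1 cells 196 and 233, DNCHD4 cells 221 and 168, and DNSnf2h cells 98.0 and 73.4. At chr13:21844952-21846232 parental cells had 176 and 172, DNBrg1 cells 183 and 252, DNCHD4 cells 216 and 137, and DNSnf2h cells 153 and 89.5. All 6 sites had the same order of states in each engineered line: higher without tetracycline in DNBrg1, lower without it in DNCHD4 and DNSnf2h. In parental cells 2 of the 6 were higher and 4 lower without tetracycline, with log2 ratios from -0.21 to 0.14.

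**Figure D3:**
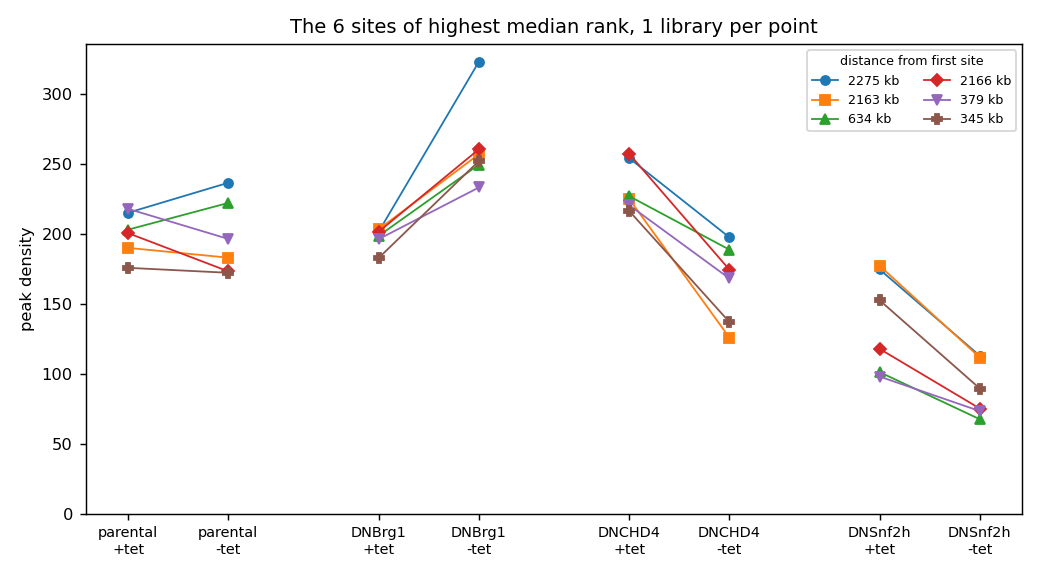
Peak density of the 6 cluster sites of highest median rank in each library (1 library per point, with and without tetracycline joined within a line). Density was higher without tetracycline at all 6 sites in DNBrg1 cells (233 to 323 against 183 to 203) and lower at all 6 in DNCHD4 and DNSnf2h cells.

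For ratios between the states of a line, its 2 lists were merged genome-wide and a site was called at least 2-fold higher or lower without tetracycline, as deposited. Where only 1 of the lists held a site, the entry threshold of the other list (its lowest density) stood in for the missing value. Such a ratio is called a bound below, but it is one only if the missing site lay under that threshold, which is unknown. In parental cells, which carry no dominant-negative construct, 7 of 108 cluster sites (6.48%) were called lower and 0 higher, against 9.69% and 0.681% of all parental sites. Of these calls 5 rest on a bound, and the list without tetracycline held nothing under 19.8 within 50 kb of those sites. Set against the lowest density within 50 kb, 2 sites were lower and 0 higher. At the 88 cluster sites listed in both libraries the median log2 ratio was -0.37 (range -1.45 to 0.46), against -0.40 over the genome. Between the tetracycline states of cells without a dominant-negative construct, the cluster's change thus stood near the genome's median. For single sites merged over the 8 lists, the counting interval lay below no change at 46 (54.1%) and above it at 2 (2.35%) of 85 sites listed in both parental libraries, against 54.1% and 5.19% of such sites in the genome. It lay below the genome's median at 10 and above it at 20, against 19.7% and 20.5%. With the genome median set to 0, 4 sites were called lower and 2 higher, against 2.31% and 2.6% of all sites.

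The lowest parental ratio was at chr13:23542117-23542805 in the second subcluster, with 58.3 with and 21.4 without tetracycline, 2.73-fold lower (2.10 to 3.58). DNBrg1 cells had 41.6 and 39.8 there, and DNCHD4 cells 41.9 and 24.3. At chr13:23792808-23793517 parental density was 42.5 and 21.62, 1.96-fold lower (1.49 to 2.61). The highest parental ratio, at chr13:22087353-22087900, came from 15.2 and 20.9, with an interval of 0.951 to 2.00 that held 1. The parental line thus had single sites that were lower beyond counting error without any dominant-negative construct.

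In DNBrg1 cells, peak density over the cluster did not share the genome-wide shift to lower values after induction. The median log2 ratio of the 88 cluster sites listed in both libraries was 0.06 (range -0.98 to 0.92), against -0.64 (SD 0.61 across sites) over 23046 sites of the genome, and 83 of the 88 lay above the genome's median. A cluster median at 0.06 exceeded 91.3% of the ratios in the genome. As deposited, 3 of 106 cluster sites (2.83%) were called lower, against 29.4% of all sites of the line, and 4 (3.77%) were called higher, against 0.291%. All 7 calls rest on a bound, and none of the 88 sites listed in both libraries differed 2-fold. Set against the lowest density within 50 kb, 0 sites were lower and 1 higher. Of 82 sites merged over the 8 lists, the counting interval lay above no change at 21 (25.6%) and below it at 19 (23.2%), against 2.79% and 65.5% of such sites in the genome. It lay above the genome's median at 61 (74.4%) and below it at 0, against 22.3% and 22.6%. With the genome median set to 0, 2 cluster sites were lower (9.04% of all sites) and 30 of 106 (28.3%) were higher, against 2.93% of all sites. Of those 30, 20 were listed in both libraries. The direction in this line thus depended on the scale: the cluster was close to even as deposited and higher relative to the rest of the genome.

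The same was seen against nearer comparisons. The median log2 ratio was -0.68 at the other 952 sites of chromosome 13 listed in both DNBrg1 libraries, and -0.50 at the 58 such sites within 5 Mb of the cluster. Among sites listed in all 8 libraries, the 61 of the cluster had a median of 0.08 and the other 12531 one of -0.63. The gap was present at each level of density in parental cells with tetracycline. At 100 and over, the cluster's 28 sites had a median of 0.02 and the 5256 other sites -0.57, with 27 of the 28 above the latter. From 50 to 100, the values were -0.03 for 17 and -0.70 for 4286 sites, and under 50 they were 0.23 for 16 and -0.63 for 2989 sites. With mean density in place of peak density the cluster's median was -0.17 and the genome's -0.72, so the sign of the cluster's own value turned while the gap remained. The gap was also seen against parental cells, in the library without tetracycline. Over parental cells in the same state, the 61 sites had a median log2 ratio of -0.03 with tetracycline (-0.10 over the other 12531 sites) but 0.32 without it (-0.37), and 60 of 61 lay above the latter. Scaling between libraries is unknown, so such ratios are read against the other sites and not against 0.

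The sites of DNBrg1 cells with the highest ratios lay in the second subcluster. Merged from this line's own lists, the highest was chr13:23854024-23854943, with 72.1 and 136, 1.89-fold higher without tetracycline (1.55 to 2.32). Merged over the 8 lists it is part of chr13:23852611-23854943, which joins 13 hotspots and whose highest densities were 145 and 136, a log2 ratio of -0.084, so its place at the top depends on the merge. The next 3 keep their ratios under both merges. At chr13:23504246-23505498, density was 40.6 and 51.5 in parental cells and 76.2 and 136 in DNBrg1 cells, which is 1.79-fold higher without tetracycline (1.48 to 2.19). DNCHD4 cells had 44.5 and 42.3 there, and DNSnf2h cells 22.4 and 20.6. At chr13:23712559-23713925 parental cells had 96.1 and 89.3, DNBrg1 cells 84.4 and 144, DNCHD4 cells 109 and 83.4, and DNSnf2h cells 71.0 and 51.8. The DNBrg1 ratio was 1.71 (1.42 to 2.06). The merged site chr13:23837017-23839445 joins 15 hotspots of the 8 lists, so its highest density need not come from the same position in each. Parental cells had 123 and 144 there, DNBrg1 cells 130 and 210, DNCHD4 cells 162 and 130, and DNSnf2h cells 171 and 86.7. It was 1.61-fold higher in DNBrg1 (1.39 to 1.88), and also 1.17-fold higher in parental cells (1.03 to 1.34).

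The lowest DNBrg1 ratios came from the first subcluster. At chr13:21825802-21826496 density was 39.3 with and 19.9 without tetracycline, 1.97-fold lower (1.40 to 2.77), beside 31.0 and 20.9 in parental cells. The next site, chr13:21826584-21827809, had 48.0 and 25.8, 1.86-fold lower (1.38 to 2.52), beside 64.8 and 33.2 in parental cells. Both were adjacent, and both were lower without tetracycline in parental and DNCHD4 cells too. At chr13:22118016-22118753 the DNBrg1 values were 34.6 and 19.1 and the parental ones 32.9 and 15.7. All of these sites thus changed in the same direction in parental cells. Sites with the highest DNBrg1 ratios under both merges were mixed in this respect. Those from 23504246 and 23837017 were higher without tetracycline in parental cells too, beyond counting error. The parental change at that from 23712559 was downwards and within counting error.

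In DNCHD4 cells the cluster was lower after induction while the genome as a whole stood near even. The median log2 ratio of the 102 cluster sites listed in both libraries was -0.16 (range -1.03 to 2.23), against 0.03 over the genome. Among sites listed in all 8 libraries it was -0.34 for the cluster and -0.03 for the others, and 47 of 61 lay below the latter. The gap was seen at high density: at 100 and over the values were -0.40 and 0.01, with 26 of 28 cluster sites below the others' median. Under 50 they were 0.02 and -0.14, in the opposite order. All 26 sites with a density of 100 and over inside the subclusters were lower without tetracycline, and the 2 between the subclusters were higher. In parental cells most of these sites were lower too: 8 of 9 in the first subcluster, 15 of 17 in the second and both between them. The parental median at this density was -0.34 for the cluster and -0.36 for the others. As deposited, 19 of 136 DNCHD4 sites (14%) were called lower and 5 (3.68%) higher, against 9.69% and 7.73% of all sites of the line. Of 100 sites merged over the 8 lists, the counting interval lay below no change at 45 (45%) and above it at 18 (18%), against 28.2% and 31.1% of such sites in the genome. It lay below the genome's median at 49 and above it at 16, against 30% and 29.1%. Of the 19 lower calls 16 rest on a bound. The list without tetracycline began at 5.09 and held nothing under 11.4 within 50 kb of those 16 sites, so whether they lay at the list's limit is unknown. Set against the lowest density within 50 kb, 3 sites were lower and 3 higher. With the genome median set to 0, 19 were lower and 4 higher, against 10.2% and 7.21% of all sites.

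Single sites in DNCHD4 cells went both ways. At chr13:23646567-23647427 density was 63.9 with and 31.5 without tetracycline, 2.03-fold lower (1.68 to 2.46), beside 61.1 and 42.0 in parental cells. At chr13:21807113-21808519 it was 136 and 67.6, 2.02-fold lower (1.77 to 2.30), beside 142 and 95.5 in parental cells and 54.0 and 28.8 in DNSnf2h cells. The weak site chr13:21584512-21585266, before the first subcluster, had 20.4 and 9.99. Against this trend, chr13:22036357-22037365 in the first subcluster was 57.6 with and 135 without tetracycline, 2.35-fold higher (2.06 to 2.69). There parental cells had 62.3 and 66.4, DNBrg1 cells 85.5 and 82.4 and DNSnf2h cells 15.1 and 18.9, so induced DNCHD4 cells stood above the other 7 libraries. The highest ratio was at chr13:21548040-21548753, outside the subclusters, with 8.77 and 41.1, 4.69-fold (3.42 to 6.54). Elsewhere that site was listed in parental cells without tetracycline, at 24.2, and in DNSnf2h cells without tetracycline, at 8.26.

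In DNSnf2h cells the cluster was lower after induction, with a median near that of the few sites around it. The median log2 ratio of the 67 cluster sites listed in both libraries was -0.31 (range -1.54 to 0.80), against -0.02 over the genome, and 49 of 67 lay below the latter. The other sites of chromosome 13 had a median of -0.07, but the 49 sites within 5 Mb of the cluster had -0.36. Of these 49, which were not matched for density, 21 were higher without tetracycline, against 18 of the 67 cluster sites. As deposited, 11 of 104 sites (10.6%) were called lower and 1 (0.962%) higher, against 4.63% and 1.96% of all sites. Of these, 7 lower calls and no higher call were at sites listed in both libraries. The counts were the same with the genome median set to 0, against 4.43% and 2.1% of all sites. Set against the lowest density within 50 kb, 8 sites were lower and 0 higher. Among sites listed in all 8 libraries with a density of 100 and over, the cluster had a median of -0.50 and the others 0.17, and 27 of 28 cluster sites lay below the latter. Under 50 the values were -0.09 and -0.11. Of 66 sites merged over the 8 lists, the counting interval lay below no change at 34 (51.5%) and above it at 3 (4.55%), against 26.2% and 21.8% of such sites in the genome. The counts against the genome's median were the same, against 25.6% and 22.8%.

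The lowest DNSnf2h ratios were again in the second subcluster and near it. At chr13:23667249-23667867 density was 30.4 with and 10.5 without tetracycline, 2.90-fold lower (2.11 to 4.05), beside 46.2 and 47.1 in parental cells. At chr13:23634849-23635714 it was 70.2 and 28.2, 2.49-fold lower (2.04 to 3.04), beside 111 and 97.6 in parental cells. At the highest ratios, chr13:21973426-21974290 had 14.9 and 23.4, 1.56-fold higher (1.17 to 2.11), and chr13:22065835-22067381 had 14.0 and 20.4. The parental values at these sites were 39.4 and 31.9, and 33.5 and 28.6.

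**Figure D4:**
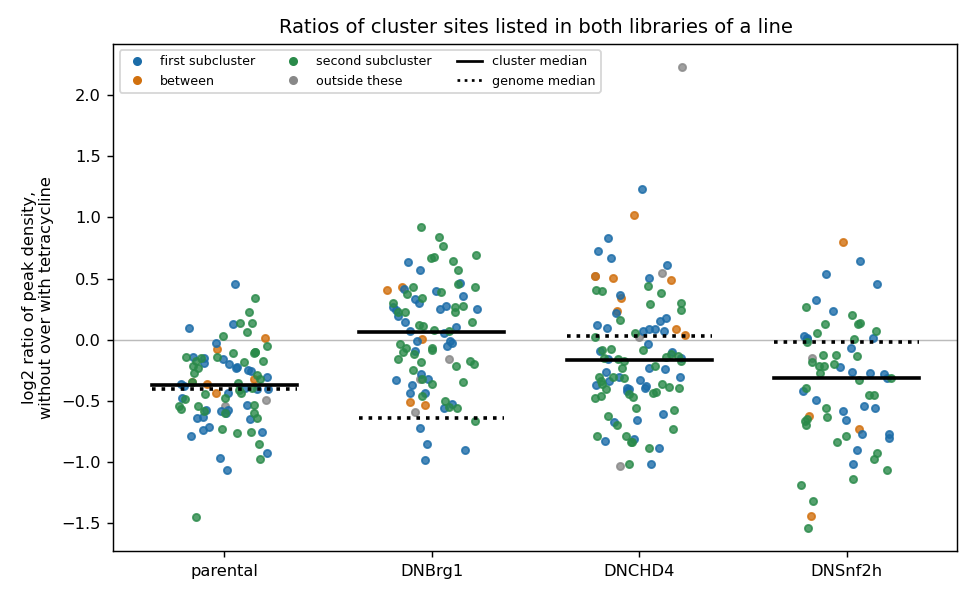
Log2 ratio of peak density without over with tetracycline at cluster sites listed in both libraries of a line, 1 point per site, coloured by stretch, with the cluster median (solid) and the genome median (dotted). The cluster median lies above the genome median in DNBrg1 (0.06 against -0.64), close to it in parental cells (-0.37 against -0.40) and below it in DNCHD4 (-0.16 against 0.03) and DNSnf2h (-0.31 against -0.02).

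The median change had the same sign in both subclusters in each line. In the first and second subcluster the median log2 ratio was -0.40 and -0.33 in parental and 0.05 and 0.11 in DNBrg1 cells. In DNCHD4 cells it was -0.15 and -0.31, and in DNSnf2h cells -0.27 and -0.32. The DNBrg1 medians lay near no change, so their shared sign says little. In that line 18 sites were higher and 17 lower in the first subcluster, and 25 and 20 in the second. Whether the subclusters differ was not tested. The stretch between them differed most in DNCHD4 cells, where all 8 sites listed in both libraries were higher without tetracycline, with a median of 0.41 (range 0.04 to 1.02). The counting interval held 1 at the sites from 23389525, 23390186, 23409014 and 23460529 and lay above 1 at the others. A rise was not particular to this stretch: before the first subcluster, 4 of 5 such sites were higher in DNCHD4 cells, with a median of 0.52. The few sites between the subclusters listed in both libraries, 4 to 8 per line, limit what the medians there show.

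Of the 7 sites listed in 4 or more libraries between the subclusters, all but 1 lay near the start of the second. The strongest, chr13:23492481-23494386, had 193 and 142 in parental cells. DNBrg1 cells had 272 and 188 there, DNCHD4 cells 172 and 202, and DNSnf2h cells 41.1 and 26.6. Density there was 1.45-fold lower in induced DNBrg1 cells (1.29 to 1.63) and 1.18-fold higher in induced DNCHD4 cells (1.08 to 1.29). This is the reverse of the sites of highest median rank inside the subclusters. Subcluster sites with at least 100 in parental cells with tetracycline went both ways in DNBrg1 cells. Of 26 such sites listed in all 8 libraries, 14 were higher in induced DNBrg1 cells. All 26 were lower in induced DNCHD4 cells, and most of them were lower without tetracycline in parental cells too. At chr13:23460529-23461514 parental cells had 104 and 83.7, DNBrg1 cells 124 and 86.7, DNCHD4 cells 129 and 132, and DNSnf2h cells 13.8 and 23.98. This site had the highest DNSnf2h ratio of the cluster, 1.74 (1.29 to 2.35), and was 1.43-fold lower in induced DNBrg1 cells (1.19 to 1.70). Their DNBrg1 log2 ratios of -0.54 and -0.51 lay near the genome's -0.64.

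The other sites there were weaker. At chr13:23390186-23392345 parental cells had 46.2 and 46.6, DNBrg1 cells 58.0 and 78.1, DNCHD4 cells 46.9 and 49.7, and DNSnf2h cells 23.0 and 9.47, which is 2.42-fold lower (1.72 to 3.47). The site chr13:23399126-23399967 ranged from 8.26 to 28.8 over 7 libraries, and chr13:23409014-23409825 from 10.4 to 32.7 over 6, with no DNSnf2h library. The site chr13:23494404-23495085 was listed in 5 libraries at 10.7 to 20.4 and in neither parental library. Farther from both subclusters, chr13:23249549-23250247 was listed at 18.6 and 14.7 in parental cells and at 15.6 and 31.5 in DNCHD4 cells, 2.03-fold higher without tetracycline (1.55 to 2.66). It was in no DNBrg1 or DNSnf2h list.

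The 61 sites listed everywhere allow the directions in the 4 lines to be set side by side, each line with its own library with tetracycline. At 19 sites (31.1%) density as deposited was higher without tetracycline in DNBrg1 cells and lower in the other 3 lines, against 1.55% of the other sites listed everywhere. At 6 further sites (9.84%, against 0.822%) it was higher in DNBrg1 and parental cells and lower in DNCHD4 and DNSnf2h cells. It was lower in all 4 lines at 15 sites (24.6%, against 30.3%). The combination frequent elsewhere, lower in parental and DNBrg1 and higher in DNCHD4 and DNSnf2h cells, was found at 3 sites (4.92%, against 23.4%). These counts are as deposited and turn with the scaling of each line, which applies to the cluster and the other sites alike.

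The cluster's sites differed widely in their density in the DNSnf2h line relative to parental cells, even with tetracycline. Relative to parental cells with tetracycline, log2 density in DNSnf2h cells ran from -3.18 to 0.47 over the 61 sites, with a median of -1.29, against -1.92 at the other sites. The lowest was at chr13:23515443-23516944, with 99.8 in parental and 11.0 in DNSnf2h cells. The highest was at chr13:23837017-23839445, with 123 and 171. This measure went with the DNBrg1 ratio, in which it shares no library: across the 61 sites Pearson's r was 0.67 and Spearman's rho 0.72, against r = -0.03 across the other 12531 sites. Sites with a higher density in DNSnf2h relative to parental cells tended to be those with a higher DNBrg1 ratio. Sites are not replicates and share the same 4 libraries and stretch of chromosome, so the correlation describes these libraries only. The part of base composition, of width and of list thresholds in it was not tested. It was the strongest of several correlations computed over these sites, none of them planned. Log2 density in parental cells with tetracycline had r of -0.08, -0.38 and -0.24 with the DNBrg1, DNCHD4 and DNSnf2h ratios. The DNSnf2h and DNCHD4 ratios had r of 0.41 with each other, against 0.59 across the other sites.

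**Figure D5:**
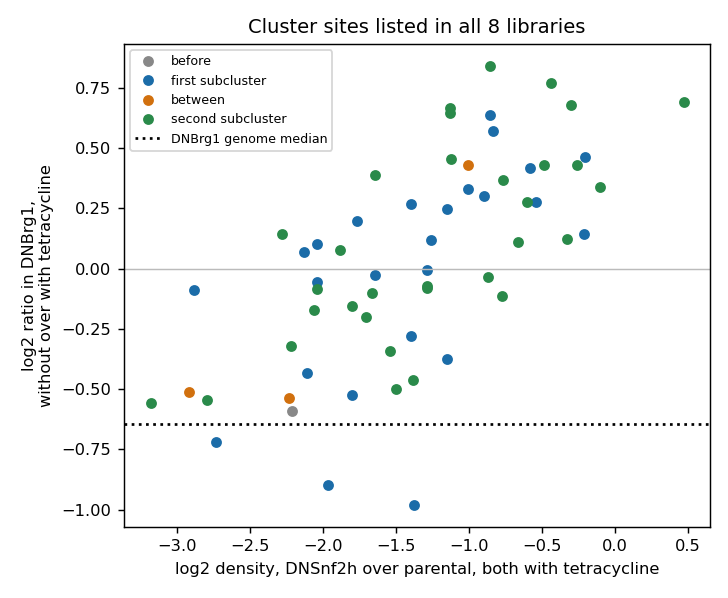
For the 61 cluster sites listed in all 8 libraries, log2 density of DNSnf2h over parental cells, both with tetracycline (x), against the log2 ratio without over with tetracycline in DNBrg1 cells (y), coloured by stretch, with the DNBrg1 genome median as a dotted line at -0.64. Points rise from the lower left to the upper right (r = 0.67), and 58 of 61 lie above the median of the other sites listed everywhere.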

How the data were processed

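DNase-seq was done on 8 libraries, 1 per line and tetracycline state, grouped by the submitters' labels. The submitters' processing notes name CASAVA 1.6 and build mm9. For the hotspot calling, the program and its filters were not named by any label or header. The deposited lists, 1 for every library, were called per library. Columns hold the maximum and the mean tag density of a hotspot, a signal that the authors scaled by a factor of each library to a target that is not stated. The deposited z-score (a score) and p-value of a hotspot are the authors' own and were only described.

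Hotspots were merged at an overlap of at least 1 bp, over the 8 lists for listing and over the 2 lists of a line for calls, and the value of a site was its highest peak density. Tags were recovered by dividing peak density by its step. Sites were called at 2-fold, as deposited and with the genome's median ratio set to 1. With 1 library per group no test was made, and nothing shows the spread between cultures. Alternatives were the scaling, mean density, fold, merging, list thresholds and subcluster limits. Calls and intervals were tested on simulated data with independent counts at fixed sites. Such data cannot show how well the intervals cover the highest density of merged hotspots, which may come from different positions. The members, lists and comparisons were chosen with earlier results of these data known. Named sites were the 6 of highest median rank, the 3 lowest and 3 highest ratios per line over the 8-list merge, sites between the subclusters in at least 4 libraries, sites found in both libraries of 1 line only and the 3 strongest found once. The site with the lowest DNSnf2h density over parental cells and the DNBrg1 site highest in that line's own merge were named after their values were seen. The software was Python 3.11.15 with pandas 2.3.3, numpy 2.4.6, scipy 1.17.1 and, for plots, matplotlib 3.10.9.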

Additional observations from a re-analysis of the deposited data

Results flagged for a closer look

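Median changes of the cluster had opposite signs, as deposited, in DNBrg1 cells and in each of the other lines. The difference in median log2 ratio was -0.43 for parental minus DNBrg1, 0.22 for DNBrg1 minus DNCHD4 and 0.37 for DNBrg1 minus DNSnf2h cells. With 1 library per group none of these differences was tested, and they move with the scaling of each line.

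At some named sites the counting intervals of 2 lines lay on opposite sides of no change and the log2 ratios differed by at least 1. These differences were not tested either. DNBrg1 minus DNCHD4 was 1.04 at the site from 23775340, 1.18 at that from 23662706, 1.12 at 21844952, 1.01 at 23837017 and 1.16 at 23712559. DNBrg1 minus DNSnf2h was 1.31 at 23775340, 1.004 at 23662706, 1.02 at 23665666, 1.23 at 21844952, 1.67 at 23837017, 1.22 at 23712559 and 1.71 at 23390186. The site from 23460529, between the subclusters, went the other way, with -1.31 for DNBrg1 minus DNSnf2h and -1.12 for parental minus DNSnf2h. Parental minus DNSnf2h was 1.21 at 23837017, and DNCHD4 minus DNSnf2h was 1.22 at 23494404.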

How the results depend on the processing

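Of 138 values recomputed for 32 results, 84 were counted as the same, 49 as moved and 5 as changed in sign. Values counted as the same could still differ in size. With the limits moved inwards, the first subcluster's sites went from 60 to 43 and were counted so. With the limits moved outwards, so was the DNBrg1 median log2 ratio between the subclusters, which went from 0.0061 to 0.22. Most of the values that moved were counts of sites called. No paired analysis was possible because the 2 states of a line, which are already compared within the line, have 1 library each, so no pair is repeated within a line, and the lines carry different constructs. Leaving out a replicate was not run for the same reason. Alternatives with the lowest density within 50 kb, with chromosome 13 as the reference, with the 8-list merge for ratios and with only sites listed everywhere were chosen after seeing the data.

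With the genome's median ratio set to 1, the cluster's median log2 ratio was 0.034 in parental and 0.70 in DNBrg1 cells, and with the rest of chromosome 13 as the reference 0.049 and 0.74. By the former, 4 parental sites were lower and 2 higher, and 30 DNBrg1 sites were higher. With mean density the DNBrg1 median was -0.17, and lower and higher sites numbered 18 and 6 in parental, 8 and 15 in DNBrg1, and 29 and 17 in DNSnf2h cells, with 18 higher in DNCHD4. Among sites listed in both libraries, 2 parental sites were lower, DNBrg1 had 0 in either direction, DNCHD4 3 in each, and DNSnf2h 7 lower and 0 higher. At 1.5-fold, lower and higher sites numbered 33 and 2 in parental cells, 9 and 15 in DNBrg1 cells, 34 and 13 in DNCHD4 cells and 33 and 8 in DNSnf2h cells. At 3-fold, 0 parental sites were lower, 0 DNBrg1 sites higher, 7 DNCHD4 sites lower and 2 higher, and 1 DNSnf2h site lower and 0 higher. A common density threshold gave 0 lower DNBrg1 and 10 lower DNCHD4 sites. With the lowest density within 50 kb, 2 parental sites were lower, 0 DNBrg1 sites lower and 1 higher, 3 DNCHD4 sites each way, and 0 DNSnf2h sites higher. Without hotspots under 2 times the lowest density of their list, 36 sites were listed in all 8 libraries.

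With the subcluster limits moved outwards by 100 kb, the first subcluster's DNBrg1 median was -0.0067, and the stretch between held 13 sites, 1 of them listed in all 8 libraries, with a DNSnf2h median of -1.28. Moved inwards, that stretch held 57 sites, 16 of them listed in all 8, with a DNCHD4 median of -0.081, and the second subcluster held 30 sites, 20 of them listed in all 8. The cause of these changes was not tested, apart from the sites that the limits move from one stretch to another. Depth limits the weak sites: the median half-width of a single site's interval on the log2 scale was 0.28 to 0.38.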
